A study of Mus musculus with 4 samples.

Results

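The integrins and the laminins, the receptors and one of the main ligand families of the basement membrane, were followed in mouse gastruloids by single-cell RNA sequencing. Members were all genes whose symbols name an integrin alpha chain (Itga), an integrin beta chain (Itgb) or a laminin chain (Lama, Lamb, Lamc), which gave 37 of the 32285 features shared by the 4 libraries. They comprised 18 integrin alpha chains, 8 integrin beta chains, 5 laminin alpha chains, 3 laminin beta chains and 3 laminin gamma chains. The choice used symbols and no measured value, but it was made with earlier results of these data known.

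Gastruloids are aggregates of embryonic stem cells that form tissues of all germ layers, and here they came from the wild type mouse embryonic stem cell line Zx1. All aggregates received a pulse of the Wnt activator CHIR99021. Those grown on past day 4 were kept in a cardiogenic medium with bFGF, VEGF and ascorbic acid. Only those of day 11 had gone on to the plain N2B27 medium that followed it. Cells of several pooled gastruloids were released with trypsin on days 4, 5, 6 and 11 and made into 1 library a day with the 10x Chromium 3′ v3.1 chemistry. There is no untreated or mutant group, and the day of culture, the medium of that day and the library cannot be told apart.

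A laminin is a trimer of 1 alpha, 1 beta and 1 gamma chain, and its alpha chain carries the main binding site for cells. An integrin is a dimer of 1 alpha and 1 beta chain, so that the alpha chain largely decides which ligand is bound and a shared beta chain links many receptors to the cytoskeleton. In the embryo laminins line epithelia, vessels and muscle fibres, and integrins anchor cells to them or to fibronectin and collagen.

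The libraries held 7324, 7794, 6628 and 9584 barcodes for days 4, 5, 6 and 11, of which 6555, 6457, 5254 and 7854 cells were kept. The median depth of the kept cells was 24233, 28145, 24695 and 11425 unique molecular identifiers (UMIs), so the day 11 library was the shallowest per cell. Between 5 and 23 cell barcodes were shared by any pair of libraries. Values are UMIs of a gene per 1000000 UMIs of the pooled cells named (CPM). Because a 3′ library counts 1 tag a molecule, CPM were not divided by gene length. With 1 library a day there was no replicate and no test. Intervals in parentheses are exact 95% intervals that cover counting error only.

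Cells were also grouped by 6 marker genes without use of any integrin or laminin. A cell was called high for Cdh5 (vascular endothelium), Epcam (epithelium), Pax7 (muscle and dorsal neural progenitors), Myog (committed myocytes) or Twist1 (mesenchyme) with at least 2 UMIs and 100 CPM of the marker, and high for Myl7 (cardiomyocytes) at 2000 CPM. On day 11 there were 320 Cdh5-high, 53 Epcam-high, 139 Pax7-high, 121 Myog-high, 2194 Twist1-high and 1337 Myl7-high cells, and 3842 cells were in none of the 6 sets. On day 6 there were 343 Cdh5-high, 207 Epcam-high, 2618 Twist1-high and 491 Myl7-high cells, while Pax7-high cells numbered 23 and were not described. Cdh5-high cells first reached 50 cells on day 5, and Epcam-high and Twist1-high cells were present on all 4 days. In a shallow cell 2 UMIs stand for more than 100 CPM. The sizes of the sets can therefore also depend on depth, which was lowest on day 11. Sets of Sox2-high (neural or pluripotent) and Fcer1g-high (myeloid) cells served for comparison.

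The sets were read against marker lists of their cell types. All 8 endothelial markers were at least 2 fold higher in Cdh5-high than in other cells of day 11, with a summed level of 2582 against 95.9 CPM. All 10 endoderm markers were higher in Epcam-high cells of day 11, all 7 markers of committed myocytes in Myog-high cells and all 8 cardiomyocyte markers in Myl7-high cells. Epcam-high cells of days 4, 5 and 6 carried markers of 2 kinds, with 8, 6 and 8 of 10 endoderm markers and 5, 5 and 6 of 6 epiblast markers higher. Twist1-high cells had 2 of 6 mesenchyme markers higher on days 4 and 5 and 5 of 6 on days 6 and 11, so the data gave the label less ground on the first days. Pax7-high cells of day 11 carried 5 of 6 markers of muscle progenitors but also 4 of 6 neural markers. The sums of the 2 lists were 439 and 827 CPM. Pax7-high and Myog-high cells are called the skeletal muscle sets below, although the Pax7-high set was thus mixed. The 90 Pax7-high cells without a Sox2 UMI had a neural sum of 30.5 CPM. Values for them are given beside those of the whole set for Lama2, Itga4, Itgb8 and the count of members. On day 11 Sox2-high cells had 6 of 6 neural and 0 of 6 epiblast markers higher. On day 6 they had 5 of 6 of each. On days 4 and 5 they had 1 of 6 neural markers, and 5 and 6 of 6 epiblast markers, higher. Twist1-high and Myl7-high cells overlapped, by 228 cells on day 6 and 106 on day 11.

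Integrin and laminin transcripts took a growing share of the transcriptome. The sum over the 37 genes was 264 CPM on day 4, 317 on day 5, 400 on day 6 and 567 on day 11. Integrin beta chains were the largest class, at 145.5, 174.9, 176.8 and 272.4 CPM, of which Itgb1 alone gave 102, 145, 149.3 and 228 CPM. Integrin alpha chains went from 49.1 and 53.9 CPM on days 4 and 5 to 143 and 148.6 CPM on days 6 and 11. Laminin alpha chains stayed between 20.4 and 22.7 CPM until day 6 and stood at 46.6 CPM on day 11. Laminin beta chains summed to 35.0, 38.5, 42.8 and 73.5 CPM, and laminin gamma chains to 13.6, 26.7, 17.4 and 25.4 CPM. Of the 37 members, 20 reached 20 CPM on some day or in some set of at least 50 cells, and 13 stayed under 1 CPM in the whole library on every day.

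**Figure D1:**
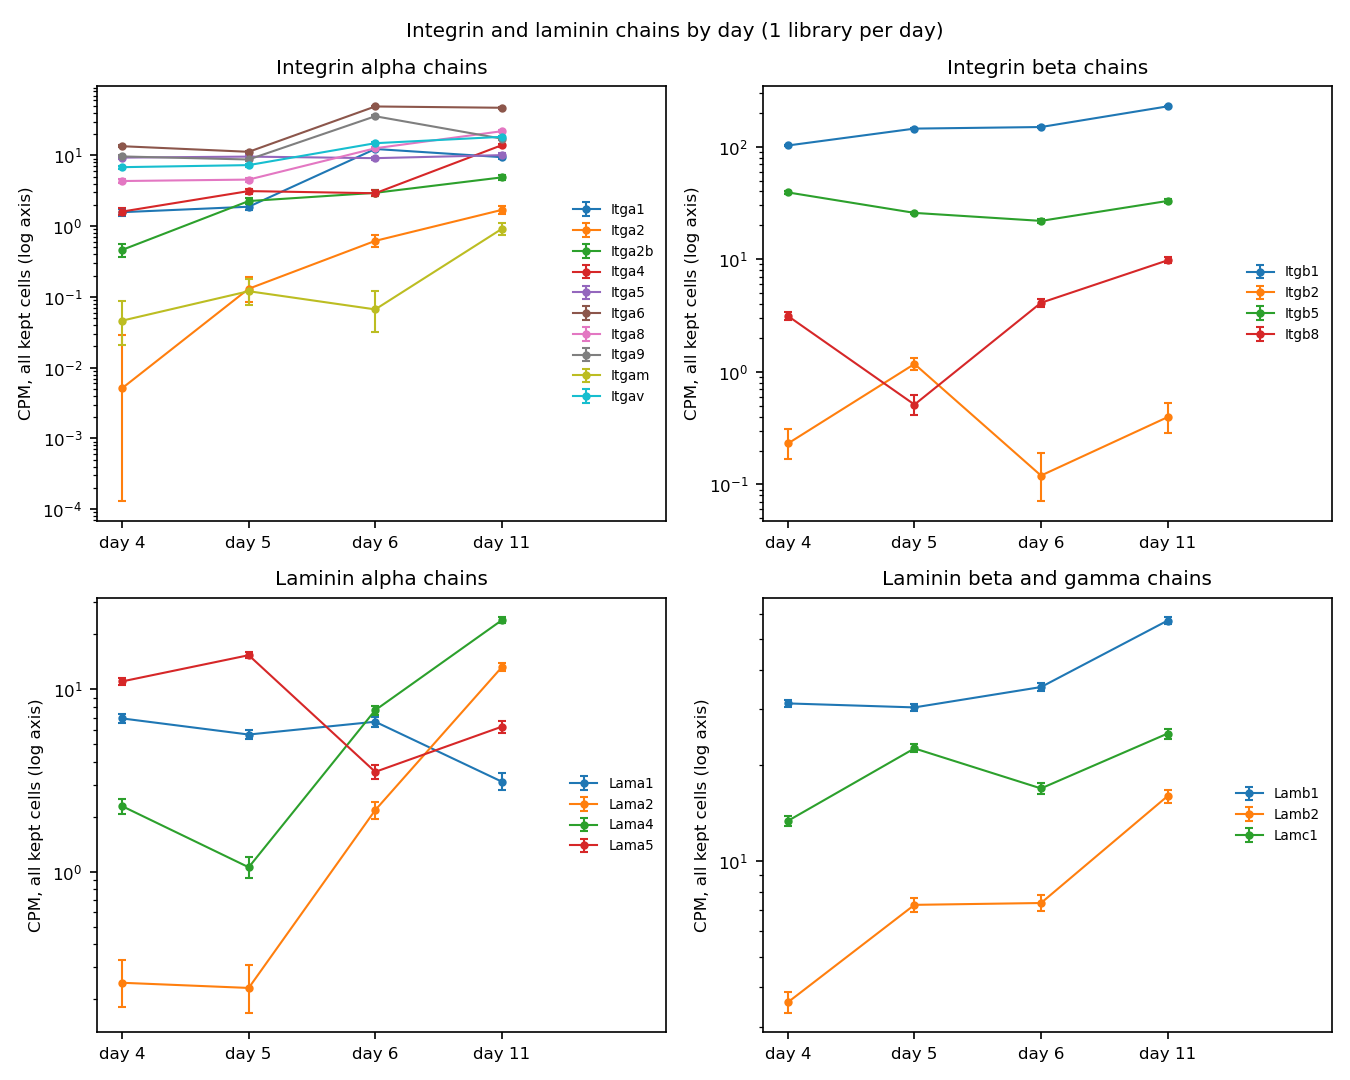
Level of the integrin and laminin chains described in full and of Lama1 in all kept cells (CPM, log axis) on days 4, 5, 6 and 11, with exact 95% Poisson intervals of counting error. Points are single libraries, so the lines show no replicate error; Itgb1 lies highest on every day, and Lama4 and Lama2 lie above Lama5 on day 11 after lying below it on day 5.

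Between consecutive days a member was counted when its level differed at least 2 fold, on log2(CPM + 1), among features with a mean of at least 5 CPM. From day 4 to day 5 none of the 11 members tested passed 2 fold, against 10.4% of 9240 features (6.54% higher and 3.89% lower). From day 5 to day 6, 4 of 13 members were higher (Itga1, Itga6, Itga8 and Itga9), where 10.9% of all features were, and Lama5 was lower, where 3.85% were (14.7% either way). From day 6 to day 11, 5 of 15 members were higher (Itga4, Itgb8, Lama2, Lama4 and Lamb2), where 8.75% of all features were. Itga9 was lower, where 3.3% were (12.1% either way). Its log2 ratio of -1.01 was close to the limit. With all barcodes over 200 genes or a pseudocount of 5 CPM no member was lower. Lama1, at 0.470 (0.415 to 0.531) times its day 6 level, was under the minimum mean and not counted. The median log2 ratio of the members tested was 0.04, 0.20 and 0.61 over the 3 steps, and that of all features was -0.03, 0.18 and 0.02.

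The leading laminin alpha chain differed between the days. Lama5, the alpha chain of laminins under most epithelia, was at 11.1, 15.4, 3.53 and 6.24 CPM on days 4, 5, 6 and 11. Its day 6 level was 0.229 (0.209 to 0.252) times that of day 5. Lama1, the alpha chain of the first embryonic basement membranes, was at 6.93, 5.66, 6.65 and 3.12 CPM, so it was lowest on day 11. Together Lama1 and Lama5 gave 33.7% (32.2 to 35.2) and 53.8% (52.2 to 55.3) of all laminin alpha UMIs on day 4, but 6.70% (6.04 to 7.40) and 13.4% (12.5 to 14.3) on day 11.

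Lama4, the alpha chain typical of vessel walls, was at 2.29, 1.06, 7.69 and 23.9 CPM. Lama2, the alpha chain around striated muscle, was at 0.25, 0.23, 2.18 and 13.2 CPM. Both were higher on day 11 than on day 6, Lama4 by a ratio of 3.11 (2.9 to 3.34) and Lama2 by 6.07 (5.38 to 6.86). On day 11 Lama4 provided 51.3% (50 to 52.7) and Lama2 28.4% (27.2 to 29.6) of the laminin alpha UMIs. Lama3, an alpha chain of skin-type laminins, did not exceed 0.41 CPM in any library.

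The alpha chains were divided between the marker-high sets. In Cdh5-high cells Lama4 was at 10.2 (6.26 to 15.8) CPM on day 5, 57.7 (53.7 to 62.0) on day 6 and 130 (122 to 138) on day 11. On day 6 this was 20.1 (17.7 to 22.7) times the level of the other cells, and these 343 cells held 65.9% of all Lama4 UMIs. On day 11 the ratio was 8.06 (7.45 to 8.72), with 16.1 CPM in the other cells. Lama4 made up 97.9% (96.8 to 98.7) of laminin alpha UMIs in Cdh5-high cells of day 11, and Lama5 was at 0.51 CPM there.

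In Epcam-high cells Lama5 was the main alpha chain on every day. Its level was 31.9, 32.8, 25.5 and 27.1 CPM on days 4, 5, 6 and 11, a narrower range than in the whole library. The ratio to the other cells of the same day was 4.56 (4.18 to 4.97), 2.99 (2.78 to 3.21), 11.0 (9.21 to 13.2) and 4.51 (3.12 to 6.34). Epcam-high cells were 15.5% of kept cells on day 4, 20.8% on day 5, 3.94% on day 6 and 0.675% on day 11. Their share was highest on the day on which Lama5 was highest in the whole library. From day 5 to day 6 the ratio went from 2.99 to 11.0 while the Epcam-high level went from 32.8 to 25.5 CPM. Lama5 was therefore also lower in the other cells of day 6 than in those of day 5. Fewer cells of a type and less RNA per cell cannot be told apart in pooled levels of a day. Within Epcam-high cells, those with at least 2 UMIs of the endoderm factor Foxa2 had more Lama5 than those with none. The levels were 37.9 and 25.4 CPM on day 4, 46.5 and 24.1 on day 5, and 31.8 and 16.8 on day 6. The ratios were 1.49 (1.31 to 1.71), 1.93 (1.71 to 2.18) and 1.89 (1.35 to 2.67).

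Myl7-high cells held a mixed set of laminins on day 11. Lama2 was at 3.98 (2.95 to 5.24) CPM in them on day 6 and at 36.9 (34.6 to 39.2) CPM on day 11, where the other cells were at 5.82 CPM. Lama5 was at 4.22 (3.16 to 5.52) CPM on day 6, close to the 3.47 CPM of the other cells. On day 11 it was at 22.2 (20.4 to 24.0) CPM against 1.26 CPM, a ratio of 17.6 (14.3 to 21.8), and Myl7-high cells held 84.6% of all Lama5 UMIs of that day. In Myl7-high cells of day 11, Lama2 gave 47.2%, Lama5 28.3% and Lama4 23.6% of laminin alpha UMIs. The Epcam-high cells held 4.93% of Lama5 UMIs on day 11, against 43.2% on day 5.

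Within the Myl7-high cells of day 11, 432 carried at least 300 CPM of Shox2, a factor of the inflow tract and sinus node, and 378 carried at least 1000 CPM of Myl2, the ventricular light chain. Lama2 was at 53.8 (49.0 to 58.9) CPM in the Shox2 cells and 27.9 CPM in the Myl2 cells, a ratio of 1.93 (1.64 to 2.26). Lama4 differed the other way, by a ratio of 0.723. Itga9 was 7.48 (4.91 to 11.9) times and Itga2b 3.0 (1.95 to 4.74) times as high in the Shox2 cells, while Itga5 was 0.215 (0.131 to 0.340) times as high. Itga6 was near equal, at a ratio of 0.903 (0.823 to 0.991).

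The skeletal muscle sets of day 11 had Lama2 at the level of the rest of the library. It was at 14.8 (10.6 to 19.9) CPM in Myog-high cells, 11.3 (7.80 to 15.9) in Pax7-high cells and 16.5 (11.4 to 23.2) in Pax7-high cells without Sox2. The ratios to the other cells were 1.12 (0.803 to 1.52), 0.854 (0.586 to 1.20) and 1.25 (0.860 to 1.77), and none could be told from 1 at this depth. Because other alpha chains were low there, Lama2 was still 66.7% (53.7 to 78.05) of the 63 laminin alpha UMIs of Myog-high cells. Sox2-high cells had Lama1 instead, at 13.9 (11.8 to 16.3) CPM against 1.93 CPM, or 78.1% (71.7 to 83.6) of their laminin alpha UMIs.

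**Figure D2:**
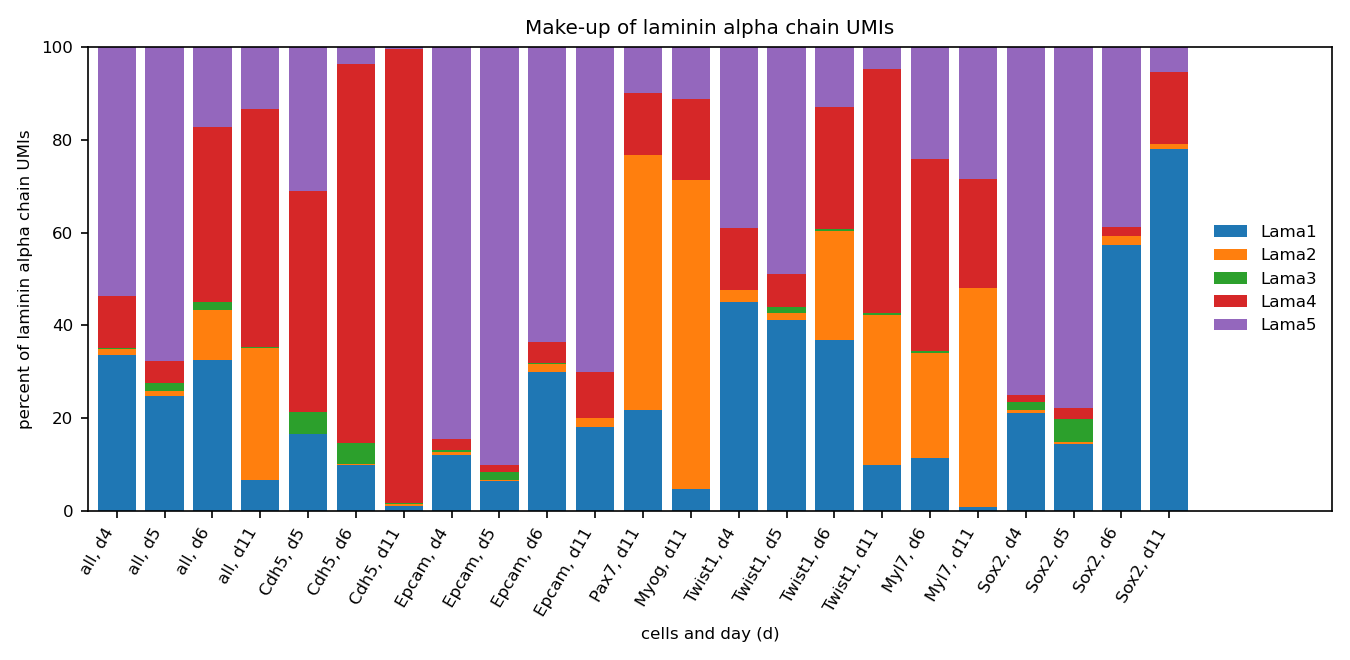
Share of laminin alpha UMIs (percent of the class, stacked bars) that came from Lama1 to Lama5 in all kept cells and in each marker-high set by day, for sets with at least 20 such UMIs. Lama5 fills most of the Epcam-high bars, Lama4 97.9% of the Cdh5-high bar of day 11, and Lama2 is the largest segment in Myl7-high, Pax7-high and Myog-high cells of day 11.

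The beta and gamma chains were shared more widely. Lamb1, the beta chain of most embryonic laminins, was at 31.3, 30.4, 35.2 and 57.0 CPM on days 4, 5, 6 and 11. Lamc1, the gamma chain that nearly all of them use, was at 13.4, 22.6, 16.9 and 25.2 CPM and gave 99.1% of the gamma UMIs on day 11. Lamb2, the beta chain of mature muscle and vessel laminins, was at 3.59, 7.28, 7.37 and 16.0 CPM. Its level of day 11 was 2.17 (2.01 to 2.34) times that of day 6.

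On day 11 Lamb1 and Lamc1 were both above the other cells in Cdh5-high and Myl7-high cells. In Cdh5-high cells Lamb1 was at 26.1, 89.5 and 113 CPM on days 5, 6 and 11, and Lamc1 at 25.1, 39.4 and 46.9 CPM. In Myl7-high cells of day 11 Lamb1 was at 72.3 CPM, Lamc1 at 49.8 CPM and Lamb2 at 34.4 CPM. The Lamb2 level there was 3.37 (3.07 to 3.69) times that of the other cells, and 51.3% of Lamb2 UMIs lay in Myl7-high cells. Sox2-high cells of day 11 had 12.9 CPM of Lamb1 and Myog-high cells 6.32 CPM of Lamc1, the lowest of the 6 sets for that chain.

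Among the receptors, Itga6, the alpha chain of the main laminin-binding integrins (chr2:71745616-71858416 of GRCm38, plus strand), was highest in the cardiac and endothelial sets. In the whole library it was at 13.5, 11.2, 49.1 and 47.1 CPM, and the level of day 6 was 4.37 (4.17 to 4.59) times that of day 5. In Myl7-high cells it was at 262 (253 to 271) CPM on day 6 and 132 (127 to 136) on day 11. The other cells were at 29.7 and 20.7 CPM, so the ratios were 8.84 (8.44 to 9.26) and 6.36 (6.01 to 6.74). The Myl7-high level of day 11 was 0.502 (0.478 to 0.526) times that of day 6.

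Cdh5-high cells had 8.71 (5.07 to 13.9) CPM of Itga6 on day 5, 129 (123 to 135) on day 6 and 132 (124 to 140) on day 11. The step from day 5 to day 6 was a ratio of 14.8 (9.21 to 25.5), and the 50 cells of day 5 set its precision. Epcam-high cells were at 27.1, 28.2, 64.7 and 22.4 CPM over the 4 days. They were above the other cells on days 4, 5 and 6 and below them on day 11, where the ratio was 0.474 (0.317 to 0.681). Twist1-high cells were below the other cells on every day, at 6.07, 5.44, 31.3 and 9.56 CPM. Among the 6 sets of day 11, Itga6 was lowest in Pax7-high cells, at 6.87 (4.20 to 10.6) CPM, and Myog-high cells, at 3.16 (1.45 to 6.00) CPM. Itga6 was also at least 2 fold lower in Sox2-high than in other cells of day 11. Its gene overlaps predicted genes on both strands.

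The other laminin-binding alpha chains were low. Itga3, found in epithelia and endothelium, reached 19.98 (14.2 to 27.3) CPM in Cdh5-high cells of day 5 and was at most 3.01 CPM in a whole library. Itga7, the laminin receptor chain of muscle fibres, was at most 0.33 CPM in a whole library and reached 2.55 (1.74 to 3.59) CPM in Myl7-high cells of day 6. Itgb4, the partner of Itga6 in hemidesmosomes, did not exceed 5.66 CPM in any described set.

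Itga4, the alpha chain of receptors for fibronectin and Vcam1 (chr2:79255426-79333123, plus strand), was highest in the skeletal muscle sets. The whole libraries were at 1.61, 3.13, 2.92 and 13.9 CPM. On day 11 Myog-high cells were at 144 (131 to 159) CPM and Pax7-high cells at 115 (103 to 128), and Pax7-high cells without Sox2 at 165 (148 to 184). The ratios to the other cells were 13.6 (12.2 to 15.3), 10.2 (8.98 to 11.5) and 14.7 (13.0 to 16.6). Itga4 was also at least 2 fold higher in Fcer1g-high than in other cells of day 11, so it was not particular to the skeletal muscle sets. Myl7-high cells were at 1.70 (1.24 to 2.26) CPM and Cdh5-high cells at 1.29 (0.616 to 2.36). Myog-high cells therefore had 85.1 (62.6 to 118) times the Itga4 and 0.0240 (0.0110 to 0.0457) times the Itga6 of Myl7-high cells, and the cardiac and skeletal muscle sets thus differed in opposite directions for these chains. Itga4 overlaps Cerkl on the other strand.

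Promoter windows were available from RefSeq for 23 of the 37 members, 250 bases before to 50 after a transcript start on GRCm38.p6. The window of Itga4 (chr2:79255176-79255475, plus strand) is shown because it holds CAGCTG, a form of the E-box that myogenic factors can bind, in capitals. The window of Itga2b (chr11:102469834-102470133, minus strand) is shown for the endothelial set, with GGAAG, the core of ETS motifs, in capitals on either strand (CTTCC is its reverse complement).
Itga4: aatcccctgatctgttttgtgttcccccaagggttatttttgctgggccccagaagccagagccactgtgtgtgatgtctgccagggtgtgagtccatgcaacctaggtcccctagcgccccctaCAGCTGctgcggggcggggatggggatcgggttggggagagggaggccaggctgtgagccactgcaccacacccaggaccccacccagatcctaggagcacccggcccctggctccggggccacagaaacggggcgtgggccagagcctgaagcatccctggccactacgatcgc
Itga2b: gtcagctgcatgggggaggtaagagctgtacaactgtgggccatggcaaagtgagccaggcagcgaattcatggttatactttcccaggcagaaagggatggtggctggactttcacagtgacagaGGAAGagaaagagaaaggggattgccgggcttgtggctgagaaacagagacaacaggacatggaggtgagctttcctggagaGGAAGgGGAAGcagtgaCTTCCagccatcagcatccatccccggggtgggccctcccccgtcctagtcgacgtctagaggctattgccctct
The E-box form, which reads the same on both strands, was in 16.3% of all 32851 windows and in those of 8 of the 23 members, Itga2b among them, where it is left in lower case. The ETS core on either strand was in 71.4% of all windows and in those of 18 of the 23 members. The GATA motif AGATAA, searched on both strands, was in 11.2% of all windows and in that of 1 of the 23 members, Itgax. These matches are descriptions of letters and name no bound site.

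Itga9, a relative of Itga4 that binds tenascin and other ligands, was at 9.66, 8.75, 35.8 and 17.2 CPM over the 4 days. It was at 52.4 CPM in Myl7-high and 50.6 CPM in Twist1-high cells of day 6, and at 10.9 and 19.1 CPM in the same sets of day 11. In Cdh5-high cells it was near level, at 45.1 CPM on day 6 and 46.9 (42.2 to 52.0) on day 11. The ratio to the other cells was 1.30 (1.19 to 1.41) on day 6 and 3.11 (2.77 to 3.49) on day 11, when the other cells were at 15.1 CPM.

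Of the collagen receptors, Itga1 was at 1.58, 1.88, 12.3 and 9.44 CPM, and the day 6 level was 6.55 (5.86 to 7.34) times that of day 5. It overlaps Pelo on the same strand, so the split of reads between the genes is uncertain. Itga2 was below 2 CPM in every library but concentrated in Cdh5-high cells. It had no UMI in the 50 Cdh5-high cells of day 5, was at 5.99 (4.75 to 7.47) CPM on day 6 and at 20.6 (17.5 to 24.0) on day 11. The Cdh5-high cells of day 11 held 82.9% of its UMIs, and their level was 66.0 (45.2 to 99.2) times that of the other cells.

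Receptors that recognise the RGD motif of fibronectin and vitronectin were unevenly divided. Itga5, the classical fibronectin receptor chain, was flat between 9.14 and 10.1 CPM over the 4 libraries. In Cdh5-high cells it was at 27.1, 32.5 and 35.1 CPM on days 5, 6 and 11, and the day 11 level was 4.25 (3.70 to 4.88) times that of the other cells. Itga2b, known from megakaryocytes and early blood progenitors, was at 27.1 (20.3 to 35.5) CPM in Cdh5-high cells of day 5, 22.0 (19.5 to 24.7) on day 6 and 4.76 (3.35 to 6.56) on day 11. On day 6 these cells held 65.3% of its UMIs, and on day 11 their level was 0.971 (0.676 to 1.36) times that of the other cells.

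Itga8, a chain of mesenchymal receptors for nephronectin, was at 4.34, 4.55, 12.6 and 22.0 CPM. Twist1-high cells of day 11 were at 31.0 CPM and Myl7-high cells at 2.95 (2.34 to 3.67). The cells in none of the 6 sets were at 31.5 CPM, so Itga8 was not particular to Twist1-high cells. Itgav, which pairs with several beta chains, was at 6.82, 7.29, 14.9 and 18.3 CPM and highest in Myl7-high cells of day 6, at 31.0 (28.0 to 34.3) CPM.

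Itgb1, the beta chain shared by most of these receptors (chr8:128685654-128733200, plus strand), was the most abundant member in every library, at 102, 145, 149.3 and 228 CPM. In Cdh5-high cells it was at 176, 206 and 426 (412 to 441) CPM on days 5, 6 and 11. The other sets of day 11 lay between 132 CPM in Sox2-high and 239 CPM in Myl7-high cells, or 251 CPM in the Shox2 cells among the latter. Itgb1 was thus 2.00 (1.93 to 2.07) times as high in Cdh5-high as in other cells of day 11.

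Itgb5, a partner of Itgav, was at 39.2, 25.8, 21.9 and 32.9 CPM. On day 11 Itgb5 was highest in Fcer1g-high cells, at 53.0 CPM. It was at 46.5 CPM in Twist1-high cells and 32.3 in Myl7-high cells, but at 9.0 in Cdh5-high, 4.22 in Myog-high and 2.06 in Pax7-high cells. Itgb8, a partner of Itgav that takes part in the activation of TGF-beta, was at 3.13, 0.51, 4.10 and 9.77 CPM. It was highest in Sox2-high cells, at 16.2 CPM on day 6 and 23.5 (20.8 to 26.5) on day 11. In Pax7-high cells it was at 11.7 CPM, but at 3.0 (1.10 to 6.53) in those without Sox2, which held 6 of its 34 UMIs.

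**Figure D3:**
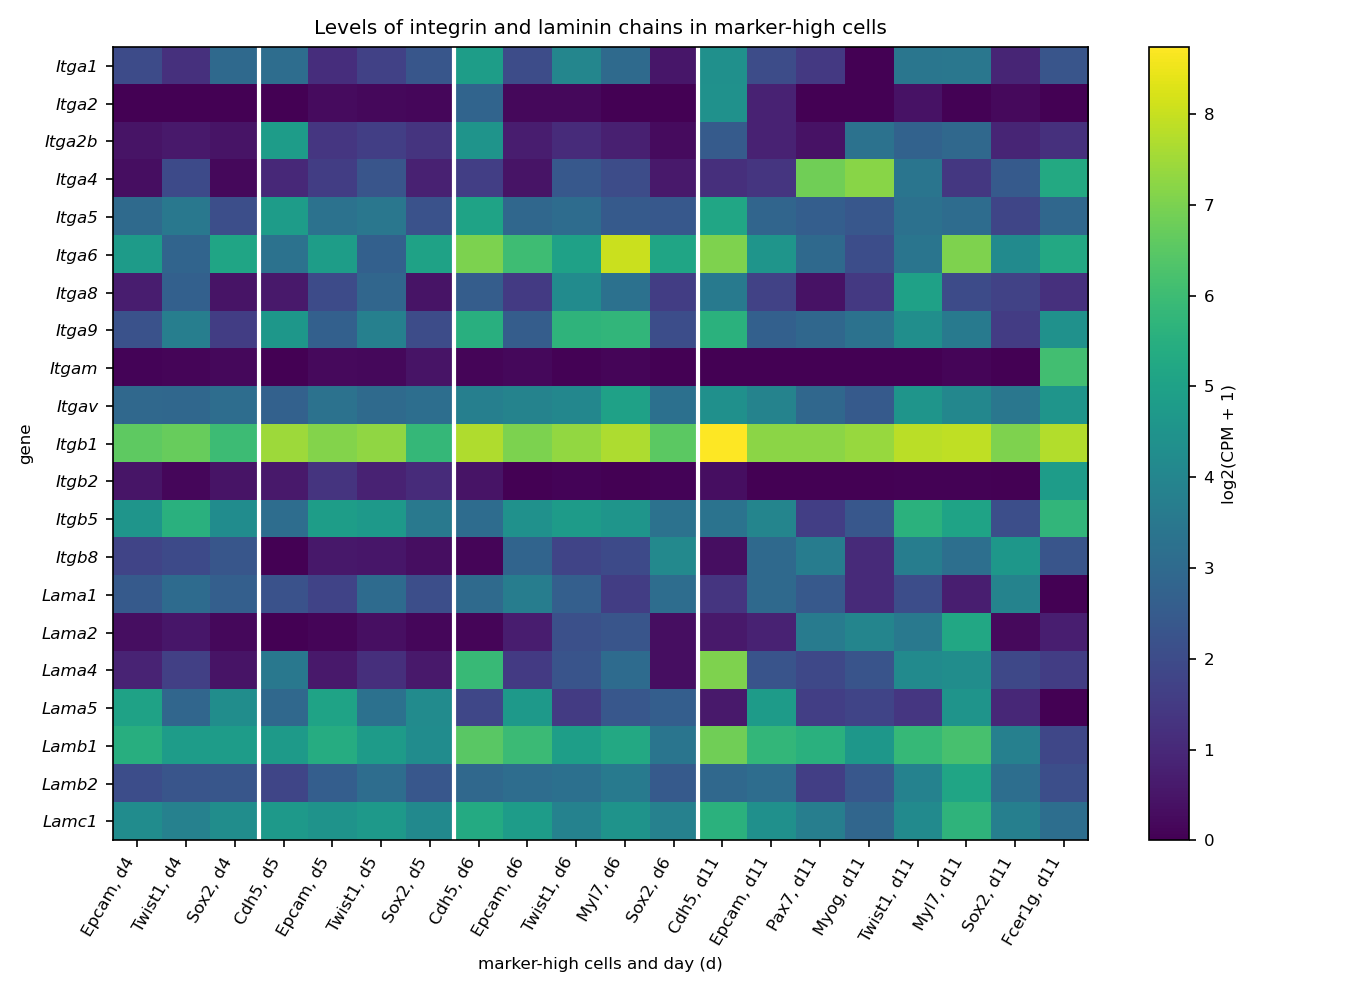
Heat map of log2(CPM + 1) for the integrin and laminin chains described in full and for Lama1 (rows) in the marker-high sets of days 4, 5, 6 and 11 (columns, days parted by white lines), each cell from 1 library. Itga6 is brightest in Myl7-high cells of day 6 (262 CPM), Itga4 in Pax7-high and Myog-high cells, and Lama4 in Cdh5-high cells of day 11.

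Most UMIs of 4 leukocyte integrin chains on day 11 lay in the 51 Fcer1g-high cells. Itgam, of the myeloid receptor Mac-1, was at 66.9 (54.5 to 81.3) CPM there, with 97.1% of its day 11 UMIs, and its partner Itgb2 at 27.1 CPM with 91.1%. Itgb2 was nonetheless highest in the whole library of day 5, at 1.17 CPM, as was Itgb7, at 1.46 CPM, and Itgae was highest on day 4, at 0.98 CPM. Itgal was at 12.6 CPM and Itgax at 5.96 CPM in the same cells. The remaining members with low levels included Itgb6, at 8.08 (5.12 to 12.1) CPM in Myog-high cells from 23 UMIs, and Itgad, which was at most 0.04 CPM in a library. The 17 members not described in full reached at most 19.98 CPM in any described set.

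Counted over each set of day 11 with the same 2 fold rule, Cdh5-high cells had the most members above the other cells of their day. In Cdh5-high cells 7 of 16 members tested were higher, where 8.96% of all features were, and 5 were lower, where 13.9% were (22.9% either way). The higher members were Itga1, Itga2, Itga5, Itga6, Itga9, Lama4 and Lamb1. In Myl7-high cells 5 of 17 were higher (Itga6, Lama2, Lama5, Lamb2 and Lamc1), where 10.5% of features were, and 2 were lower (Itga4 and Itga8), where 16.8% were (27.3% either way). The median log2 ratio of the members tested was 0.98 in Cdh5-high and 0.09 in Myl7-high cells, beside -0.16 and -0.25 for all features.

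The skeletal muscle sets went the other way, except for Itga4. In Myog-high cells Itga4 was the 1 member higher of 15, where 4.62% of features were higher, and 10 were lower, where 19.6% were (24.2% either way). In Pax7-high cells Itga4 was again the 1 higher, where 3.59% of features were, and 8 were lower, where 13.2% were (16.8% either way). The members' medians were -1.73 in Myog-high and -1.30 in Pax7-high cells, and those of all features -0.32 and -0.12. In Pax7-high cells without Sox2 the count was also 1 higher and 8 lower, where 3.57% and 17.7% of features were. The lower members then included Itgb8 and no longer Itga9. Their median was -1.44, and that of all features -0.22.

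Epcam-high cells of day 11 had 1 of 17 members higher (Lama5), where 6.9% of features were, and 8 lower, where 10.4% were (17.3% either way). Twist1-high cells had none of 16 higher, where 2.13% of features were, and 1 lower (Itga6), where 5.36% were (7.49% either way).

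On day 6, 7 of 14 members were higher in Cdh5-high cells, where 9.83% of features were, and 2 were lower (Itga8 and Itgb5), where 9.17% were. Of the 7, Itga1, Itga5, Itga6, Lama4 and Lamb1 were also among the higher members of day 11, and Itga2b and Lamc1 were not. Myl7-high cells of day 6 had 2 of 12 higher (Itga6 and Itgav), where 6.67% of features were, and none lower, where 7.2% were. With cells high for several markers left out, 263 Myl7-high cells remained. In them 2 members were higher and 2 lower, where 771 and 980 of 9776 features were. Twist1-high cells had 2 of 13 higher (Itga8 and Itga9), where 1.22% were, and 2 lower (Itga6 and Lama4), where 2.91% were. Epcam-high cells had 1 of 14 higher (Lama5), where 5.25% were, and 3 lower (Itga1, Itga8 and Itga9), where 5.13% were.

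The same rule was applied to the sets of days 4 and 5. Cdh5-high cells of day 5 had 5 of 12 members higher (Itga2b, Itga3, Itga5, Itga9 and Lama4), where 5.27% of features were, and 2 lower (Itgb5 and Lama5), where 4.97% were. Epcam-high cells had 2 of 10 higher on day 4 (Itga6 and Lama5), where 5.93% were, and Itga9 lower, where 3.08% were. On day 5 Itga6 and Lama5 were again higher in them, where 4.54% were, and no member was lower, where 1.82% were. Twist1-high cells had none higher on day 4, where 0.578% were, or on day 5, where 0.325% were. Itga6 was the 1 member lower in them on both days, where 1.4% and 1.27% of features were.

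**Figure D4:**
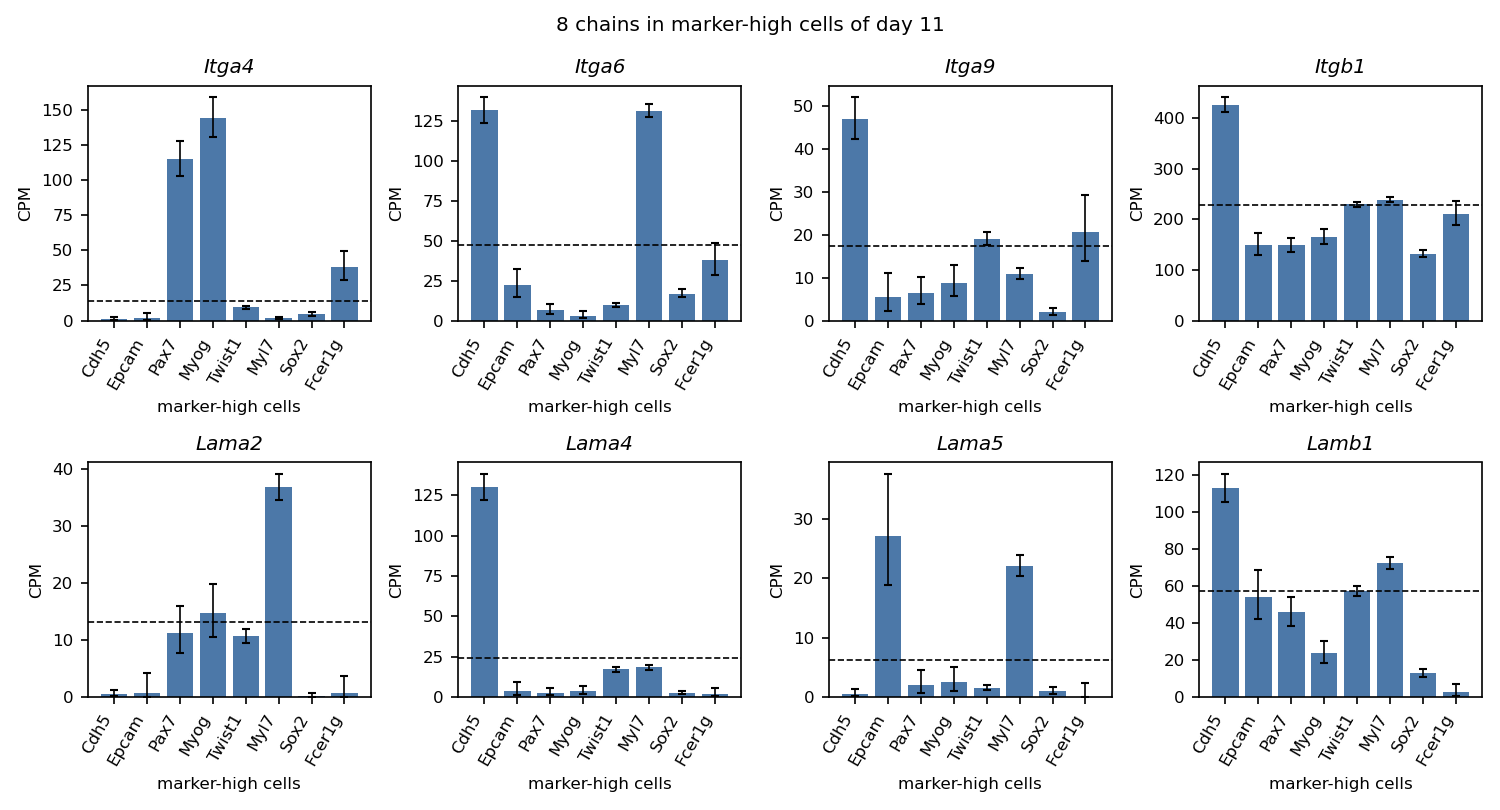
Level (CPM, bars from 0, with exact 95% Poisson intervals of counting error) of Itga4, Itga6, Itga9, Itgb1, Lama2, Lama4, Lama5 and Lamb1 in the marker-high sets of day 11, with a dashed line at the level of all kept cells. Itga4 stands at 144 CPM in Myog-high and 1.70 CPM in Myl7-high cells, and Itga6 at 3.16 and 132 CPM.

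Whether partner chains were found in the same cell was read after thinning each cell to 5000 UMIs. Cells with too few UMIs for this were left out of the thinned shares only, so the unthinned shares cover slightly more cells. Itga6+Itgb1 was found in 30.6% (26.5 to 34.9) of Myl7-high cells of day 6, or 67.8% without thinning. Cells in none of the 6 sets gave 5.32%, or 29.0% without thinning. Itga6+Itgb1 was found in 39.9% (34.4 to 45.6) of Cdh5-high cells of day 11 but in 1 of 119 Myog-high cells, under the share of 2.52% that a count of 0 allows. Their unthinned shares were 80.0% and 7.44%.

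Itga4+Itgb1 showed the reverse, with 22.7% (15.5 to 31.3) of Myog-high and 19.4% of Pax7-high cells of day 11, or 73.6% and 46.0% without thinning. It was found in 0.649% of Cdh5-high and 0.491% of Myl7-high cells, or 2.81% and 1.57%. The 2 cells of 308 among Cdh5-high cells are under the share of 0.974% that a count of 0 allows. Median depths were 23101 UMIs in Myog-high, 18407 in Pax7-high, 19141 in Cdh5-high and 17427 in Myl7-high cells.

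The 3 chains of a vascular laminin, Lama4+Lamb1+Lamc1, were found together in 6.82% (4.27 to 10.2) of Cdh5-high cells of day 11, or 47.5% without thinning. The share was 1.15% in Myl7-high and 0.459% in Twist1-high cells, or 12.8% and 2.46% without thinning. It was found in 1 of 655 Sox2-high cells, under the 0.458% that a count of 0 allows, or 0.751% without thinning. Thinning leaves many cells without a UMI of a chain at such levels, so the shares order the sets and do not count the cells that use all 3 chains.

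A list of 27 further genes of basement membrane and adhesion gave the setting. Of its matrix genes, Fn1, which encodes fibronectin, was at 357, 167, 196 and 127 CPM over the 4 days, Col4a1 at 47.2, 45.6, 74.0 and 123 CPM and Col4a2 at 19.2, 28.9, 35.7 and 68.2 CPM. Of the adaptors that tie integrins to actin, Fermt2 was at 101, 104, 113 and 202 CPM, Tln1 at 47.3, 55.3, 81.7 and 153 CPM and Tln2 at 87.2, 43.6, 42.0 and 56.3 CPM. Dag1, the laminin receptor dystroglycan, was at 29.0, 23.9, 35.2 and 48.7 CPM, and Bcam, a receptor of Lama5-containing laminins, at 3.07, 14.8, 4.95 and 20.6 CPM.

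By the 2 fold rule 3 of 19 genes of this list were higher on day 5 than on day 4 (Nid1, Bcam and Parva), where 6.54% of features were, and Fn1 was lower, where 3.89% were. From day 5 to day 6, 1 of 21 was higher (Tnc), where 10.9% were, and 1 lower (Bcam), where 3.85% were. From day 6 to day 11 the same genes were past 2 fold the other way, where 8.75% of features were higher and 3.3% lower. In Cdh5-high cells of day 11, 8 of 22 were higher, where 8.96% of features were, namely Nid1, Hspg2, Col4a1 and Col4a2 of the basement membrane and the adaptors Parvb, Lims1, Pxn and Ptk2. Npnt, Bcam and Tln2 were lower there, where 13.9% of features were.

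In Myl7-high cells of day 11, 5 of 20 were higher (Npnt, Dag1, Bcam, Parvb and Vcl), where 10.5% of features were, and Nid1, Col4a1 and Fn1 were lower, where 16.8% were. In Myog-high cells 2 of 21 were higher (Npnt and Tln2), where 4.62% were, and 8 were lower (Nid1, Nid2, Hspg2, Agrn, Col4a1, Col4a2, Fn1 and Bcam), where 19.6% were.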

How the data were processed

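Single cells of 4 libraries (days 4, 5, 6 and 11, 1 a day) were measured. The deposited values are UMI counts per gene and barcode that the authors made with Cell Ranger (3.1.0 in the submitters' processing notes, 6.0.1 in the header of the day 11 matrix) on mm10. Barcodes with over 200 genes, under 20% mitochondrial and over 5% ribosomal UMIs and log10 UMIs within 3 median absolute deviations were kept, and of these the top 8% by a simulated-doublet score were taken out. CPM were pooled UMIs of a set over its total. Members passed 2 fold on log2(CPM + 1) at a mean of at least 5 CPM, over all features of the table. Ratio intervals were exact conditional binomial, CPM intervals exact Poisson and shares Clopper-Pearson. Members with at least 20 CPM on any day or in any set of at least 50 cells are described in full. From the further list the highest genes of each group are named, and those past 2 fold between days and in Cdh5-, Myl7- and Myog-high cells of day 11. Members and lists were chosen with earlier results of these data known. Scripts (Python 3.11.15, NumPy 2.4.6, SciPy 1.17.1, pandas 2.3.3) were tested on simulated data. Alternatives covered filters, doublets, set limits, pseudocount, fold and thinning depth. Reference positions are from GENCODE vM21. No sample was left out, and 1 member's own values are not reported here.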

Additional observations from a re-analysis of the deposited data

Results flagged for a closer look

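The contrast of Epcam-high with other cells turned over between days for Itga6. The log2 ratio, on CPM + 1, was 1.25 on day 4 and 1.89 on day 5 and stood at -1.05 on day 11. Each value rests on 1 library, and the difference between days was not tested. The marker lists of the Epcam-high cells also differed between these days, with 5 of 6 epiblast markers at least 2 fold higher on day 4 and 0 of 6 on day 11. Within Epcam-high cells, Itga6 was also read in those with at least 2 UMIs of Foxa2 over those with none. The ratio was 0.786 (0.68 to 0.908) on day 4, 1.403 (1.23 to 1.598) on day 5 and 1.232 (1.018 to 1.495) on day 6. On day 11 these groups held 10 and 35 cells and were not described. The part of the make-up of the Epcam-high cells in the result was not tested.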

How the results depend on the processing

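Of the counts of members past 2 fold between days and in the 6 sets of day 11, 94 alternative values stayed within 1.5 times the count reported and 15 did not, and no result reversed. Without a minimum CPM the count was 5 in place of 0 for day 5 over day 4, 11 in place of 5 for day 6 over day 5, 17 in place of 11 in Myog-high, 4 in place of 1 in Twist1-high and 12 in place of 7 in Myl7-high cells, since more low members are then tested. At 1.5 fold it was 3 for day 5 over day 4 and 5 in Twist1-high cells. At 3 fold it was 2 in place of 6 for day 11 over day 6 and 5 in place of 9 in Epcam-high cells, and a pseudocount of 5 CPM gave 3 for day 11 over day 6. In Twist1-high cells it was 2 with all barcodes over 200 genes, with doublets left in, with mitochondrial, ribosomal and haemoglobin genes and the 50 most abundant features left out of the total (a reduced total), and with the marker limit halved or doubled. For these 5 the cause was not tested. Counts in Cdh5-high and Pax7-high cells of day 11 stayed within 1.5 times under every alternative run. In the sets of days 4 to 6, 39 of the alternative counts moved and 78 did not. In Cdh5-high cells the count was 12 without a minimum CPM and 4 at 3 fold in place of 7 on day 5, and 14 and 4 in place of 9 on day 6. In Twist1-high cells of day 6 it went from 4 to 0 with a pseudocount of 5 CPM or at 3 fold. Of the ratios of single members, 930 alternative values stayed past 2 fold in the same direction and 58 did not reach 2 fold. Of the CPM by day, 136 alternative values left the counting interval of the reported value and 184 did not. The reduced total multiplied CPM by 1.49 to 1.70, and the mean of per-cell CPM by 0.619 to 1.22. Shares of cells followed the thinning depth: at 3000 and 10000 UMIs, Lama4+Lamb1+Lamc1 was in 2.52% and 21.7% of Cdh5-high cells of day 11, Itga6+Itgb1 in 17.9% and 50.6% of Myl7-high cells of day 6, and Itga4+Itgb1 in 13.3% and 53.4% of Myog-high cells of day 11. No paired analysis was possible because each day has 1 library. For the same reason no value carries a replicate error, and day 11 has the lowest depth per cell.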
